A study of Mus musculus with 6 samples.

Results

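The genes described here are *Bambi* and 7 other inhibitors of TGF-beta and BMP signalling that act at the receptors or inside the cell: *Smad6*, *Smad7*, *Ski*, *Skil*, *Smurf1*, *Smurf2* and *Pmepa1*. They were chosen by symbol from the 44788 gene symbols of a bulk RNA-seq count table, and all 8 were found. *Bambi* was chosen for its fall in knockout tendons and for its place 3.42 Mb from *Mkx*, the knocked-out gene, so its difference between genotypes is given as a description without a test. The other 7 were selected for their role, with earlier results of these data known. The table covers tail tendons of C57BL/6 mice, 3 WT libraries and 3 *Mkx*-/- libraries, with no treatment in either group. The labels give an age of 3 weeks for every mouse, and the study's text gives an older age. *Mkx* encodes Mohawk, a homeobox transcription factor of tendon cells, and the study compared the genotypes to find genes linked to heterotopic ossification, the formation of bone inside tendons that lack *Mkx*. The *Mkx*-/- line came from another laboratory. How its allele was made, whether the WT mice were littermates, and whether tendons of several mice were pooled is not given in the sources used here.

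TGF-beta and BMP ligands bind pairs of type I and type II receptor kinases, which phosphorylate receptor-regulated Smads. These bind *Smad4* and enter the nucleus to regulate target genes. Several of the targets encode inhibitors of the same pathway, which closes a negative feedback loop. *Bambi* encodes a membrane protein that resembles a type I receptor without a kinase domain. *Smad6* and *Smad7* encode the inhibitory Smads, *Smurf1* and *Smurf2* encode ubiquitin ligases that mark Smads and receptors for degradation, *Ski* and *Skil* encode nuclear co-repressors of Smad complexes, and *Pmepa1* encodes a membrane protein that holds receptor-regulated Smads away from the receptor. In tendon, TGF-beta signalling is needed for the formation and upkeep of tendon cells.

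The libraries held 10835070 to 14160301 counts. Levels are given as normalized CPM, counts scaled to a common library size by TMM, which corrects for a few very abundant genes. Fold changes and adjusted p-values are from edgeR's quasi-likelihood test over 14550 genes with Benjamini-Hochberg adjustment. A gene was called when its adjusted p was under 0.05 and its log2 fold change was beyond 1 in either direction, which are the limits set in the study's methods. *Mkx* itself, on the minus strand of chr18:6934964-7004777 in mm9, had 1825, 1381 and 1685 counts in WT and 620, 589 and 491 counts in *Mkx*-/- libraries, a log2 fold change of -1.60 (SE 0.16, adjusted p = 0.00183). Reads on *Mkx* thus remained in every *Mkx*-/- library. WT replicate 3 differed in sex from the other 5 libraries, with 1 count of *Xist* and 301 of *Ddx3y* where the others had 1289 to 1866 and 0. Nothing in the labels says that replicates were separate mice, so the p-values measure the spread between these libraries, which may in part be technical.

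The tissue label was checked against marker lists. *Tnmd*, which marks tendon cells, stood at 886 to 1292 CPM in the 6 libraries, and all 10 tendon markers were tested. Of these, 3 were higher and 7 lower in *Mkx*-/- (median log2 fold change -0.55), and their summed level was 381130 to 526240 CPM in WT and 242770 to 338110 CPM in *Mkx*-/- libraries, most of it from the type I collagen genes. *Scx*, another tendon marker, had 17.3 to 53.4 CPM in WT and 13.3 to 19.4 CPM in *Mkx*-/- (-1.14, adjusted p = 0.106). Lists of other cell types also moved with genotype. Of the tested genes, 9 of 10 skeletal muscle markers were higher in *Mkx*-/- (summed level 96.1 to 356 CPM in WT and 491 to 2491 CPM in *Mkx*-/-), as were 8 of 10 for endothelium (74.1 to 91.0 and 123 to 188 CPM), 10 of 10 for Schwann cells (8450 to 11125 and 13090 to 24222 CPM), 7 of 7 for epidermis (4.25 to 18.6 and 25.2 to 34.3 CPM) and 5 of 7 for cartilage (1461 to 1643 and 1918 to 2252 CPM). In the endothelial list *Erg* was the only gene called, at 6.78 to 9.69 and 26.9 to 44.1 CPM, and was highest in *Mkx*-/- replicate 1. *Pecam1* was 8.88, 9.27 and 27.5 CPM in *Mkx*-/- replicates 1 to 3 and at most 7.26 CPM in WT. *Kdr*, *Tek*, *Emcn*, *Cldn5* and *Esam* overlapped between genotypes. In the cartilage list *Acan* and *Matn3* were called higher, and *Sox9* lay above WT in every *Mkx*-/- library. *Col2a1* (476 to 997 and 537 to 954 CPM) and *Chad* (571 to 978 and 937 to 1504 CPM), which held most of the sum, overlapped. *Hapln1*, *Col9a1* and *Lect1* overlapped too. All 10 macrophage and leukocyte markers were lower (472 to 521 and 312 to 382 CPM). The adipocyte sum was 25.8 to 38.8 and 44.6 to 85.9 CPM, and the osteoblast sum 3.07 to 5.45 and 6.67 to 7.37 CPM. Only 3 adipocyte and 2 osteoblast markers were tested. In the adipocyte list *Car3* alone lay above WT in every *Mkx*-/- library (2.75 to 10.6 and 22.1 to 57.9 CPM), while *Lep* lay below and the others overlapped. In the osteoblast list *Alpl* (0.551 to 1.84 and 2.53 to 3.73 CPM) and *Runx2* (0.481 to 0.788 and 1.19 to 2.53 CPM) lay above. *Dmp1* lay below, and the others, such as *Bglap* and *Ibsp*, overlapped. The mural cell sum overlapped between genotypes, at 339 to 401 CPM in WT and 359, 355 and 930 CPM in *Mkx*-/- replicates 1 to 3. *Mkx*-/- replicate 3 stood apart in *Myh11* (2.75, 2.74 and 202 CPM in replicates 1 to 3), *Acta2* (52.3, 50.2 and 396 CPM) and *Rgs5* (4.67, 5.76 and 41.8 CPM). *Matn1* of the cartilage list and *Mepe* of the osteoblast list had 0 counts in every library. *Mkx*-/- replicate 1 had the highest muscle sum and also the highest *Pmepa1* and *Bambi* levels of its genotype, and *Mkx*-/- replicate 3 had the highest endothelial sum and the highest *Smad7* level. The WT libraries went the other way. WT replicate 1 had the highest WT muscle sum (356 CPM) and the lowest WT *Bambi* (63.7 CPM) and *Pmepa1* (78.3 CPM). It also had the lowest WT endothelial sum (74.1 CPM) and the highest WT *Smad7* level (5.04 CPM). The part of these cell types in the values below was not tested. In bulk tissue, fewer cells of a type and less RNA per cell cannot be told apart.

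*Bambi*, the receptor-level inhibitor, was 3.66-fold lower in *Mkx*-/- tendons. It lies on the plus strand of chr18:3507955-3516402 in mm9, and its exons cover 5040 bases. It had 808, 690 and 977 counts in WT libraries, at 63.7, 67.7 and 78.3 CPM. In *Mkx*-/- libraries it had 239, 237 and 238 counts, at 21.9, 16.7 and 18.9 CPM. All 3 *Mkx*-/- libraries lay far below all 3 WT libraries, and the *Mkx*-/- counts were nearly the same in each. The WT mean was 69.9 ± 7.54 CPM and the *Mkx*-/- mean 19.1 ± 2.63 CPM (SD over the 3 libraries of each genotype), a log2 difference of -1.87 (SE 0.15). Without the WT library of the other sex the difference was -1.80. Among 10295 genes whose mean was 5 CPM or more, it was the 41st largest decrease. A low but clear level of *Bambi* remained, since the lowest library held 237 counts. A processed copy, *Bambi-ps1*, lies on the minus strand of chr2:122292671-122293262 and is 88.9% identical to *Bambi* over 596 aligned bases. It carried 14, 9 and 20 counts in WT and 5, 4 and 11 counts in *Mkx*-/- libraries. How the authors' counting split reads between the gene and its copy is not given in the sources used here.

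**Figure D1:**
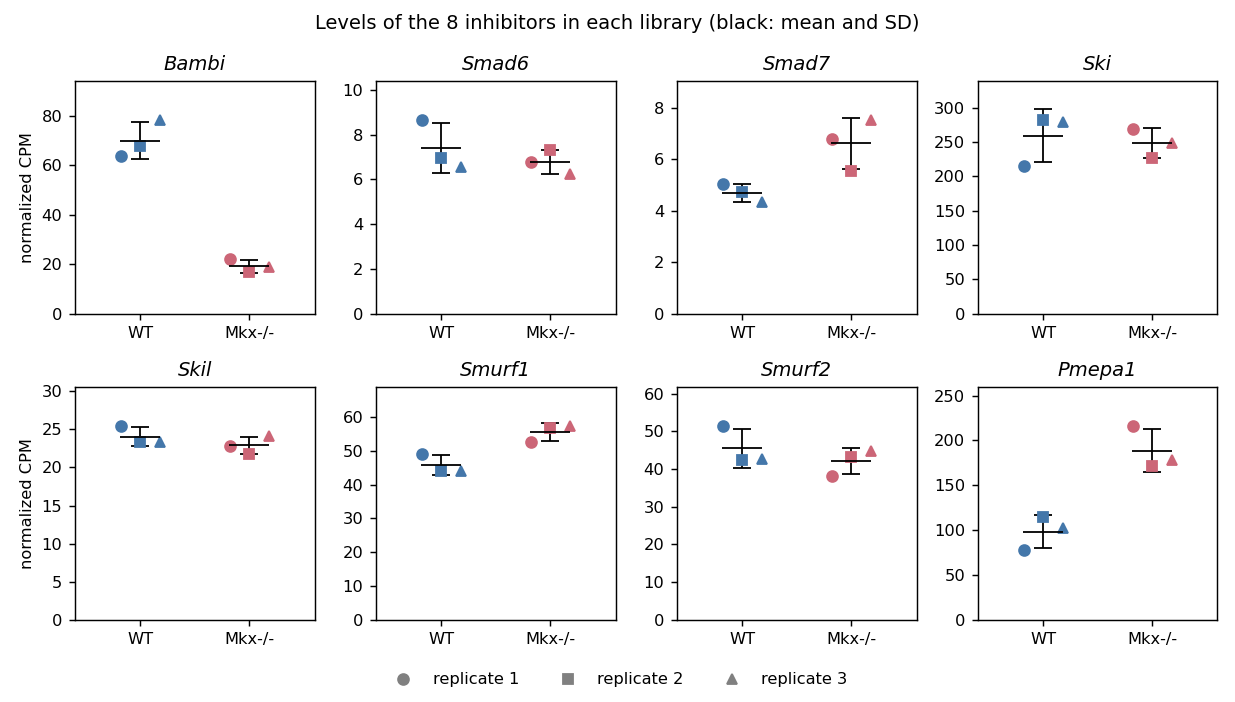
Normalized CPM of the 8 inhibitors in each of the 6 libraries, 1 panel per gene with its own axis from 0, with a symbol for each replicate and black bars for the mean and SD of each genotype. *Bambi* in *Mkx*-/- (16.7 to 21.9 CPM) lies below every WT library, *Pmepa1* (171 to 216 CPM) lies above every WT library, and *Smad6*, *Ski*, *Skil* and *Smurf2* overlap between genotypes.

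Of the 7 inhibitors that were tested, *Pmepa1* alone passed the adjusted p threshold, and it rose. *Pmepa1*, on the minus strand of chr2:173049959-173102034 in mm9, had 994, 1167 and 1271 counts in WT and 2359, 2433 and 2252 counts in *Mkx*-/- libraries. Its level was 78.3, 115 and 102 CPM in WT and 216, 171 and 179 CPM in *Mkx*-/-. The groups did not overlap, although WT replicate 1 and *Mkx*-/- replicate 1 lay farthest out at the low and the high end. The means were 98.2 ± 18.4 and 189 ± 24.2 CPM (SD, n = 3 each), which is 1.92-fold, or a log2 fold change of 0.94 (SE 0.17, 95% interval 0.55 to 1.33, adjusted p = 0.0206). The fold change fell short of the fold threshold, so the gene was not called. The adjusted p was above 0.05 in 4 of the 6 fits that left out 1 library. It was 0.0509 without WT replicate 2, 0.0855 without WT replicate 3, 0.0600 without *Mkx*-/- replicate 1 and 0.0559 without *Mkx*-/- replicate 3. Without *Mkx*-/- replicate 2 the log2 fold change was 1.01 (adjusted p = 0.0468) and the gene was called, while the fits without a library gave 0.80 to 1.05.

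*Smad6*, which mainly restrains BMP signalling, was not detectably different between genotypes. It lies on the minus strand of chr9:63800953-63869866 in mm9. The counts were 110, 71 and 82 in WT and 74, 104 and 79 in *Mkx*-/-, at 8.67, 6.97 and 6.57 CPM and at 6.78, 7.31 and 6.26 CPM. The groups overlapped almost fully. The means were 7.40 ± 1.11 and 6.78 ± 0.522 CPM (SD, n = 3 each), with a log2 fold change of -0.13, a 95% interval of -0.53 to 0.28 and an adjusted p of 0.730. Counting error alone was 11.9% at the lowest count. *Smad6* was also the only 1 of the 4 inhibitors with an entry in the RefSeq promoter table (GRCm38.p6, 250 bases before to 50 after each start) that held the palindromic Smad element GTCTAGAC, which reads the same on both strands. Of 32851 promoters in the table, 0.213% held it. The stretch that ends with it is shown because this palindrome lies across the start site, from position -4 to position 4. The stretch lies on the minus strand of chr9:64022056-64022183 in GRCm38.p6, from position -124 to position 4, with the element in capitals:
Smad6 promoter: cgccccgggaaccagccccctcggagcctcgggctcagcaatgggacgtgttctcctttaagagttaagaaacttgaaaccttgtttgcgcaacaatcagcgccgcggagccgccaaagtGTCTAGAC
The shorter Smad element CAGAC, searched on both strands, was found in the windows of *Smurf1* and *Smurf2* and in 49.6% of all promoters. The GC-rich element GGCGCC was found in those of *Ski* and *Smurf2* and in 11.9% of all promoters. *Bambi*, *Smad7*, *Skil* and *Pmepa1* had no entry. A match describes the letters of a window and not a bound site.

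*Smad7*, which restrains both TGF-beta and BMP signalling, had the lowest mean level of the 8. It had 64, 48 and 54 counts in WT and 74, 79 and 95 counts in *Mkx*-/- libraries, at 5.04, 4.71 and 4.33 CPM and at 6.78, 5.55 and 7.53 CPM. Every *Mkx*-/- library lay above every WT library, though the gap from 5.04 to 5.55 CPM was narrow against a counting error of 14.4% at the lowest count. The means were 4.69 ± 0.358 and 6.62 ± 1.0 CPM (SD, n = 3 each). The log2 difference of 0.49 (95% interval 0.051 to 0.94) did not pass the threshold in edgeR (adjusted p = 0.177). The gene lies on the plus strand of chr18:75527183-75555589 in mm9, on the chromosome of *Mkx* but 68.5 Mb away.

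*Smurf1*, on the minus strand of chr5:145637364-145726716 in mm9, had 623, 449 and 551 counts in WT and 574, 806 and 723 counts in *Mkx*-/- libraries, at 49.1, 44.1 and 44.1 CPM and at 52.6, 56.6 and 57.3 CPM. All *Mkx*-/- libraries lay above all WT libraries by a small margin. The means were 45.8 ± 2.87 and 55.5 ± 2.56 CPM (SD, n = 3 each). The log2 difference of 0.28 (95% interval 0.023 to 0.53) missed the threshold in edgeR (adjusted p = 0.186). *Smurf2*, on the minus strand of chr11:106681380-106782029, had 418, 615 and 565 counts in *Mkx*-/- libraries. Its levels of 51.4, 42.3 and 42.7 CPM in WT and 38.3, 43.2 and 44.8 CPM in *Mkx*-/- overlapped. The log2 fold change was -0.11 (95% interval -0.41 to 0.19, adjusted p = 0.666).

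*Ski* and *Skil*, the co-repressor genes, overlapped between genotypes. *Ski*, on the minus strand of chr4:154528184-154596701 in mm9, had the most counts of the 8, with 2722, 2876 and 3493 counts in WT and 2943, 3221 and 3137 counts in *Mkx*-/- libraries. WT replicate 1 had the lowest level at 214 CPM, the other WT libraries stood at 282 and 280 CPM, and the *Mkx*-/- libraries at 270, 226 and 249 CPM lay between them. The log2 fold change was -0.061 (95% interval -0.40 to 0.28, adjusted p = 0.857). *Skil*, which encodes SnoN, lies on the plus strand of chr3:30993980-31021499 and had 323, 238 and 291 counts in WT and 249, 310 and 304 counts in *Mkx*-/- libraries. Its levels were 25.4, 23.4 and 23.3 CPM in WT and 22.8, 21.8 and 24.1 CPM in *Mkx*-/-, with a log2 fold change of -0.071 (95% interval -0.33 to 0.19, adjusted p = 0.767).

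Read against all genes tested, the 7 inhibitors other than *Bambi* held 0 called genes, where 1.89% of all genes were called higher and 1.33% lower. DESeq2 also called 0 of them. At the adjusted p alone, 1 was higher and 0 lower, where the shares of all genes were 3.18% and 2.26%. At an unadjusted p under 0.05, 3 were higher (*Pmepa1*, *Smad7* and *Smurf1*) and 0 lower, where the shares of all genes were 12.5% and 10.1%. The same 3 had every *Mkx*-/- library above every WT library, a pattern of 14.6% of all genes, and 0 had every *Mkx*-/- library below, a pattern of 13.6%. The median log2 fold change of the 7 was -0.061, beside -0.0037 for all genes. *Smad6*, *Ski*, *Skil* and *Smurf2* had negative values under TMM and positive ones (0.12, 0.20, 0.18 and 0.14) when counts were scaled by library size alone, a scaling that moved the median of all genes to 0.25. Relative to that median they were -0.13, -0.050, -0.070 and -0.11, while *Bambi* was -1.87, *Pmepa1* 0.95, *Smad7* 0.49 and *Smurf1* 0.28.

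**Figure D2:**
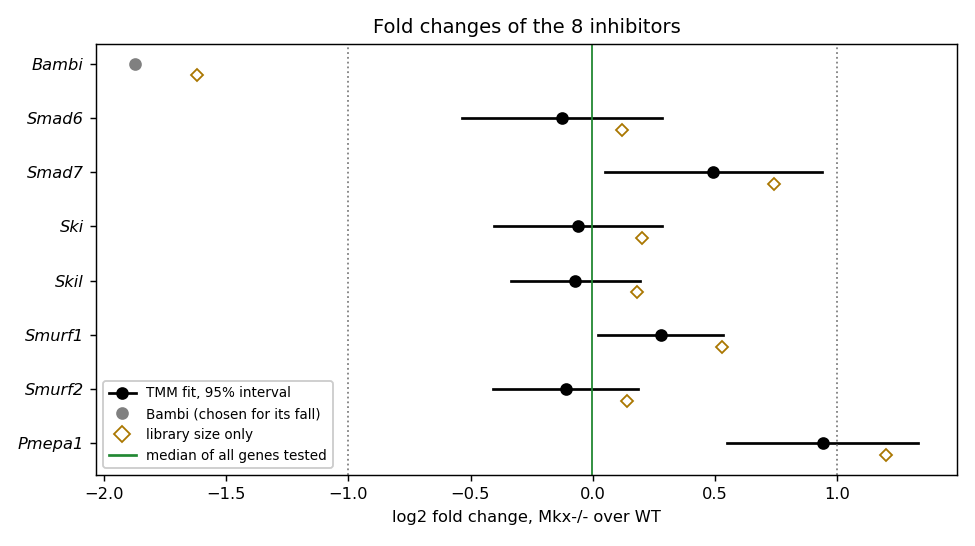
Log2 fold change of *Mkx*-/- over WT for *Bambi* (point only, since it was chosen for its fall) and for the 7 tested inhibitors with 95% intervals from edgeR, beside the values under scaling by library size alone (open diamonds) and the median of all genes (green line). Under TMM the intervals of *Pmepa1*, *Smad7* and *Smurf1* lie above 0 and those of the other 4 include 0, and *Pmepa1* alone has an adjusted p under 0.05 (0.0206).

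Levels between genes were compared per length, as CPM per kb of exon. In WT tendons *Ski* was highest at 46.5 CPM per kb, followed by *Pmepa1* at 19.99 and *Bambi* at 13.9. *Smurf2* and *Smurf1* came next at 7.38 and 7.22, with ranges of 6.87 to 8.35 and 6.96 to 7.75 that overlapped. *Skil* at 2.48 and *Smad6* at 2.36 also overlapped, and *Smad7* was lowest at 1.04 CPM per kb. In *Mkx*-/- tendons *Ski* stood at 44.6 (range 40.7 to 48.5) and *Pmepa1* at 38.4 (range 34.8 to 44.0), so that these ranges overlapped, whereas in WT they were apart. *Bambi*, at 3.80 CPM per kb, moved from the third place to the fifth, below *Smurf1* at 8.76 and *Smurf2* at 6.83. *Skil* at 2.36, *Smad6* at 2.16 and *Smad7* at 1.46 kept the last places. Exon lengths are those of all annotated transcripts joined, and a gene that uses a short transcript is understated on this scale.

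The 3 paralog pairs were compared within each library as the log2 ratio of their counts, which does not depend on scaling between libraries. The *Smurf1* to *Smurf2* ratio was -0.068, 0.059 and 0.048 in WT and 0.46, 0.39 and 0.36 in *Mkx*-/- libraries. Every *Mkx*-/- ratio lay above every WT ratio, with a mean of 0.40 ± 0.052 beside 0.013 ± 0.070 (SD, n = 3 each), a difference of 0.39. The *Smad6* to *Smad7* ratio was 0.78, 0.56 and 0.60 in WT and 0, 0.39 and -0.26 in *Mkx*-/- libraries, so that every *Mkx*-/- ratio lay below, with a difference of -0.60. The *Ski* to *Skil* ratio overlapped, at 3.07, 3.59 and 3.58 in WT and 3.56, 3.38 and 3.37 in *Mkx*-/-, and the difference of 0.017 turned negative without WT replicate 1 (-0.15) or *Mkx*-/- replicate 1 (-0.046). Exact two-sided permutation tests gave p = 0.1 for *Smurf1*/*Smurf2* and for *Smad6*/*Smad7*, the smallest value that 3 against 3 libraries allow, and p = 1 for *Ski*/*Skil*. Adjusted over the 3 pairs by Benjamini-Hochberg, the exact permutation p-values were 0.15, 0.15 and 1.

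**Figure D3:**
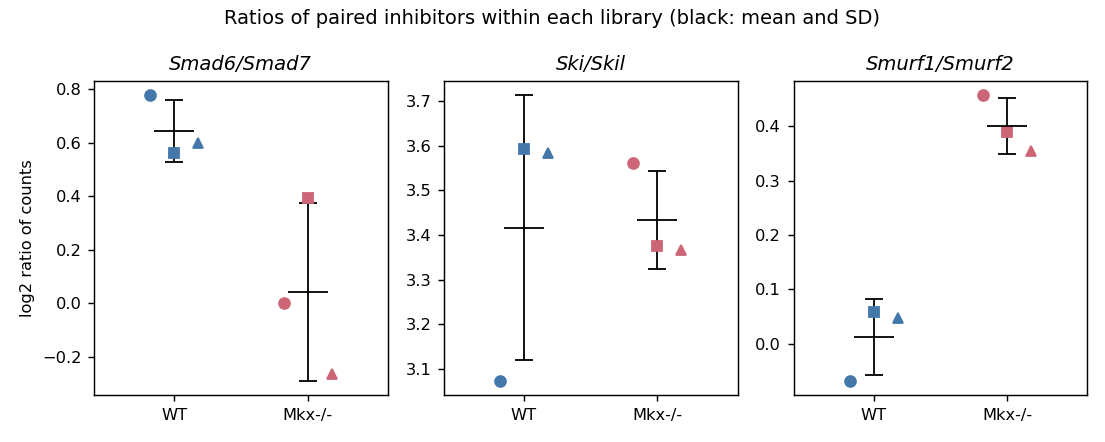
Log2 ratio of the counts of each paralog pair in each library, 1 panel per pair with its own axis, with a symbol for each replicate and black bars for the mean and SD of each genotype. The *Smurf1*/*Smurf2* ratios of *Mkx*-/- libraries (0.36 to 0.46) lie above those of WT (-0.068 to 0.059), the *Smad6*/*Smad7* ratios lie below, and the *Ski*/*Skil* ratios overlap.

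*Bambi* lies on the chromosome of the knocked-out gene, and its difference was read beside those of the other genes that start within 5 Mb of *Mkx*. Distances here run from the start of a gene to the nearer end of *Mkx*, which gives 3.43 Mb for *Bambi*. Of 61 annotated genes, 51 were in the table and 31 were tested with *Bambi* included. Of the 30 others, 25 had negative and 5 had positive log2 fold changes, where 7342 of the 14550 genes tested were negative and 7208 positive. The median was -0.14, beside -0.0037 for all genes. Of the 30, 2 were called higher and 1 lower, where the shares of all genes were 1.89% and 1.33%. All 3 *Mkx*-/- libraries lay below all WT libraries for 10 of the 30 and above for 2, where the shares of all genes were 13.6% and 14.6%. *Greb1l*, which starts 3.32 Mb away on the other side of *Mkx*, was the only 1 of the 30 called lower, from 4.34 ± 0.611 to 0.765 ± 0.336 CPM (log2 fold change -2.46, SE 0.34, adjusted p = 0.00680). *Armc4*, whose start lies 0.29 Mb from *Mkx*, was called higher, at 3.94 ± 0.841 and 17.5 ± 3.24 CPM (2.16, SE 0.21, adjusted p = 0.00171). *Abhd3* was also called higher at the threshold itself (1.0, adjusted p = 0.0467), but it lost the call without any 1 of the 6 libraries (adjusted p 0.0583 to 0.156, highest without *Mkx*-/- replicate 2). *Svil* (-0.71, adjusted p = 0.0235) and *9430020K01Rik* (-0.87, adjusted p = 0.0261), between *Bambi* and *Mkx*, passed the adjusted p and not the fold threshold.

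The tested neighbours of *Bambi* overlapped between genotypes. *Cul2* went from 10.5 to 9.75 CPM (log2 fold change -0.10, adjusted p = 0.757) and *Gm10557* from 11.6 to 10.8 CPM (-0.10, adjusted p = 0.803). *Rab18*, next to *Mkx* on the side of *Bambi*, went from 60.6 to 50.6 CPM without overlap (-0.26, adjusted p = 0.185). An effect of the lost protein and an effect of the altered *Mkx* locus or of the chromosome segment bred along with it cannot be told apart for *Bambi* in these data.

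**Figure D4:**
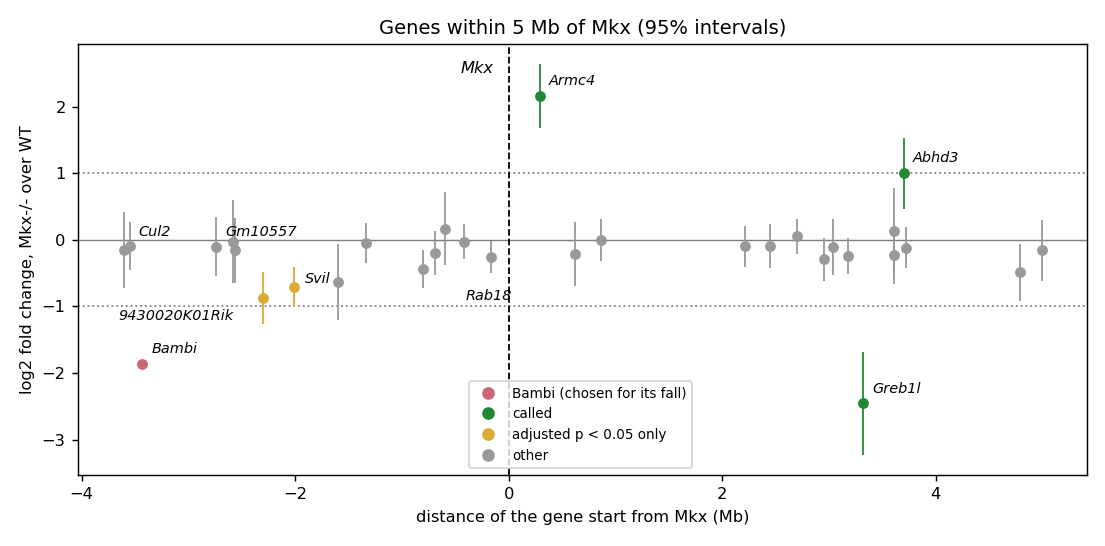
Log2 fold change of *Mkx*-/- over WT against the distance of the gene start from *Mkx* in Mb, for the 31 tested genes within 5 Mb, with 95% intervals for all but *Bambi*. *Bambi* (-1.87) and *Greb1l* (-2.46) lie below -1 on opposite sides of *Mkx*. *Armc4* (2.16) lies above 1, *Abhd3* (1.0015) lies at that line, and the rest lie between -1 and 1. Of the 30 genes other than *Bambi*, 25 have negative values, as do 7342 of all 14550 genes tested.

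The rest of the pathway was described by role, from lists that hold 125 genes, of which 109 were tested. In all, 12 were called higher and 2 lower, where 1.89% and 1.33% of all genes were called, and the median log2 fold change was 0.12. These counts rested on the libraries used: 5 were higher without WT replicate 2, without WT replicate 3 or without *Mkx*-/- replicate 2, and 6 were lower without WT replicate 1 while 1 was lower without WT replicate 2 or WT replicate 3. Some of the TGF-beta target and antagonist genes were known from earlier results of these data to have risen, so their counts are not independent of them.

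Among the other inhibitors inside the cell, 17 of 17 were tested and 10 had positive and 7 negative values (median 0.0057). Of these, 0 were called higher and 1 lower, where the shares of all genes were 1.89% and 1.33%. *Nedd4l*, a ubiquitin ligase related to the Smurf proteins that acts on phosphorylated Smads, was called lower. It stood at 99.1, 68.0 and 54.6 CPM in the WT libraries and 26.5, 35.9 and 19.5 CPM in *Mkx*-/- libraries. The groups did not overlap, with a wide WT spread, and the log2 fold change was -1.44 (SE 0.27, adjusted p = 0.0241). The call was lost without WT replicate 2 (adjusted p = 0.0766), *Mkx*-/- replicate 1 (0.0671) or *Mkx*-/- replicate 3 (0.0704). *Usp9x*, which was in this list although it removes ubiquitin from Smad4 and is known to favour signalling, passed the adjusted p and not the fold threshold (-0.64, adjusted p = 0.0417). *Dact2*, which promotes the breakdown of TGF-beta family receptors, went from 39.7 to 65.6 CPM without passing (0.73, adjusted p = 0.0654). Of the 5 receptor-regulated and common Smads tested of 6 listed, 0 were called and 0 passed the adjusted p, with 1 in each direction at an unadjusted p under 0.05. *Smad5* had values of 56.6 ± 0.528 CPM in WT and 43.1 ± 0.827 CPM in *Mkx*-/- (-0.39, adjusted p = 0.0678), and *Smad1* of 14.4 ± 4.06 and 21.2 ± 2.03 CPM (0.56, adjusted p = 0.151). The 11 positive regulators included 0 called genes, and 0 at an unadjusted p under 0.05 (median -0.12). DESeq2 also called 0 genes of both lists.

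Of the 19 TGF-beta target genes, 6 were called higher and 1 lower, where the shares of all genes were 1.89% and 1.33%. There were 14 positive and 5 negative values, with a median of 0.69. The positive values of *Tagln* and *Acta2*, which were not called, rested on *Mkx*-/- replicate 3. *Tagln* had 10.6, 22.9 and 177 CPM in *Mkx*-/- replicates 1 to 3 and 8.54 to 13.1 CPM in WT. *Acta2* had 52.3, 50.2 and 396 CPM in *Mkx*-/- replicates 1 to 3 and 66.6 to 101 CPM in WT. *Col5a1* (2.16, adjusted p = 0.00141) and *Fn1* (1.53, adjusted p = 0.00173), genes of a fibril collagen and of fibronectin, were called in each of the 14 alternatives. *Postn*, *Snai2* and *Ctgf* rose by 1.49, 1.41 and 1.2 (adjusted p 0.0165, 0.0194 and 0.0226), and their calls were lost in some fits without 1 library. *Postn* lost its call without WT replicate 2 (0.0766) or WT replicate 3 (0.0645). *Snai2* lost it without WT replicate 2 (0.0766), *Mkx*-/- replicate 2 (0.0713) or *Mkx*-/- replicate 3 (0.0613). *Ctgf* lost it without WT replicate 2 (0.0826), WT replicate 3 (0.106), *Mkx*-/- replicate 1 (0.0582) or *Mkx*-/- replicate 2 (0.0744). *Lox*, which encodes a collagen cross-linking enzyme, was called lower, from 3895 ± 666 to 1470 ± 322 CPM (-1.41, adjusted p = 0.0122), and lost the call without WT replicate 3 (0.0556). Of the 9 BMP target genes tested of 12 listed, edgeR called 0 (median 0.26), with 2 higher and 1 lower at an unadjusted p under 0.05, and DESeq2 called 1, *Id4*. *Id4* (2.08, adjusted p = 0.0599) and *Dlx5* (1.12, adjusted p = 0.0769) had positive values at low levels, with at most 38 and 29 counts in a library, and *Id3* a negative one (-0.72, adjusted p = 0.197).

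Outside the cell, 18 genes of the list of extracellular antagonists were tested. This list also held matrix proteins that bind TGF-beta and the latent TGF-beta binding protein family. Of the 18, 4 were called higher and 0 lower, where the shares of all genes were 1.89% and 1.33%. There were 15 positive and 3 negative values, with a median of 0.52. *Bgn*, a proteoglycan that binds TGF-beta, went from 1080 ± 164 to 4770 ± 408 CPM (log2 fold change 2.14, adjusted p = 0.00115) and was called in each of the 14 alternatives. *Nbl1*, a BMP antagonist, rose by 1.40 (adjusted p = 0.0157), *Ltbp2*, a microfibril protein of the latent TGF-beta binding protein family that is no antagonist itself, by 1.88 (0.0351), and *Sostdc1*, another BMP antagonist, by 1.31 (0.0369). *Nbl1* lost its call without WT replicate 3 (0.0799) or *Mkx*-/- replicate 2 (0.0513). *Ltbp2* lost it without WT replicate 2 (0.126), WT replicate 3 (0.0882), *Mkx*-/- replicate 1 (0.0673) or *Mkx*-/- replicate 2 (0.0931), and *Sostdc1* without WT replicate 2 (0.118), WT replicate 3 (0.0611), *Mkx*-/- replicate 2 (0.0801) or *Mkx*-/- replicate 3 (0.0971). *Ltbp1*, which tethers latent TGF-beta in the matrix, passed the adjusted p in the other direction and not the fold threshold, from 174 ± 28.8 to 92.1 ± 13.0 CPM (-0.92, adjusted p = 0.0215), with every *Mkx*-/- library below every WT library. Of 15 ligands tested of 22 listed, 1 was called higher, *Mstn*, from 0.363 ± 0.102 to 2.60 ± 1.46 CPM (2.81, adjusted p = 0.0294). Of 15 receptors and co-receptors tested of 16 listed, 1 was called higher, *Hfe2*, at 0.403 ± 0.264 and 3.49 ± 2.56 CPM (3.01, adjusted p = 0.0454). *Mstn* and *Hfe2* are genes of skeletal muscle, whose marker sum moved in the same direction between genotypes. In *Mkx*-/- replicates 1 to 3 that sum was 2491, 1199 and 491 CPM. *Hfe2* had the same order, at 6.32, 2.81 and 1.35 CPM, and *Mstn* did not, at 1.01, 3.86 and 2.93 CPM. The part of muscle in these 2 values was not tested. *Mstn* lost its call without any 1 of WT replicates 2 and 3 and *Mkx*-/- replicates 2 and 3 (adjusted p 0.0856 to 0.108), and *Hfe2* without any 1 library but *Mkx*-/- replicate 3 (adjusted p 0.0557 to 0.132). *Bmp3* (-0.97, adjusted p = 0.0102) and *Bmpr1b* (-0.84, adjusted p = 0.0252) passed the adjusted p and not the fold threshold.

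**Figure D5:**
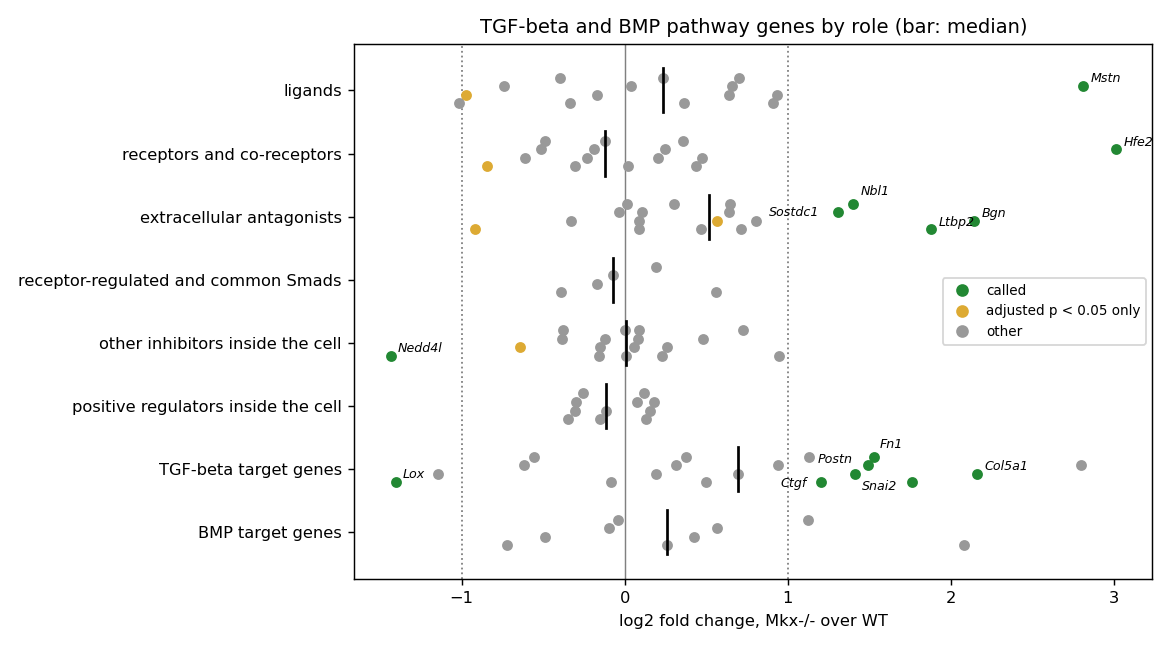
Log2 fold change of *Mkx*-/- over WT for the 109 tested pathway genes, 1 point per gene, grouped by role, with a vertical bar at the median of each list and names at the called genes that the text describes. Called genes lie mostly among TGF-beta targets (6 higher, 1 lower) and the list of extracellular antagonists (4 higher), while the Smads, the positive regulators and the BMP targets hold 0. Of all genes tested, 1.89% were called higher and 1.33% lower.

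The genes whose profile was most like that of *Bambi* were found as a description, by Pearson's correlation of log2(CPM + 0.5) over the 6 libraries, among genes whose mean was 5 CPM or more. They were *Echdc2* (r = 0.996), *Slc7a11*, *Rps6ka1*, *B230118H07Rik* and *Fgfr4* (r = 0.993). All 5 lay below every WT library in all *Mkx*-/- libraries, from 18.8 to 11.4 CPM for *Echdc2* and from 29.5 to 1.6 CPM for *Slc7a11*, which encodes the cystine transporter. As the 6 libraries form 2 genotypes, such values arise for any gene that differs between them with little spread, and 178 genes had r above 0.95.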

How the data were processed

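Total RNA of tail tendons was sequenced on the Ion Proton system after library preparation with the Ion Total RNA-Seq Kit v2. The authors removed adaptors and low-quality reads, aligned the rest to mm9 with MapSplice and deposited unnormalized counts, the number of reads on each gene symbol. The counting program, its annotation and its use of strand are not given in the sources used here. The labels matched all 6 columns to samples, and 0 were left out.

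From the deposited counts, edgeR 4.0.16 in R 4.3.3 was run with TMM scaling, filterByExpr (14550 genes left), a quasi-likelihood fit on genotype alone and Benjamini-Hochberg adjustment over all genes tested. DESeq2 1.42.0, used in the study, was run as an alternative. Log ratios of paralogs used counts + 0.5. The scripts were tested on simulated data. Coordinates and exon lengths come from GENCODE for mm9, in which no other gene overlapped any of the 8 inhibitors. Promoter windows are those of RefSeq. The depth of 10835070 to 14160301 counts leaves a counting error of 1.92% at the lowest *Ski* count and 14.4% at the lowest *Smad7* count. No 2 replicate libraries agreed within sampling noise (chi-square per degree of freedom 8.22 to 40.1).

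The text names *Mkx*, the 8 inhibitors, the called genes of each pathway list and at most the 3 with the smallest p, the called genes near *Mkx* and the neighbours of *Mkx* and *Bambi*, and the 5 genes most like *Bambi*. A gene that this rule covers is withheld for evaluation and is not reported here. *Svil*, *9430020K01Rik*, *Bambi-ps1*, the sex-linked genes and the promoter motifs were chosen after values or sequences were seen. The same holds for the single genes named from the endothelial, cartilage, adipocyte, osteoblast and mural cell marker lists. It also holds for *Tagln* and *Acta2* among the TGF-beta targets. The inhibitors and lists were chosen with earlier results of these data known. The alternatives were DESeq2, scaling by RLE or the upper quartile, a looser filter (1 count in any library) and a stricter one (10 counts in every library), removal of the skeletal muscle list and the 3 most abundant genes, the replicate number as a block, a pseudocount of 2 for the ratios, and each library left out. Scaling by library size alone was chosen after seeing the data.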

Additional observations from a re-analysis of the deposited data

How the results depend on the processing

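The log2 fold change of *Bambi* lay between -1.999 and -1.62 over 14 alternatives, and the most distant value, -1.62, came from scaling by library size alone. Under that scaling the median of all genes was 0.25, *Smad6* (0.12), *Ski* (0.20), *Skil* (0.18) and *Smurf2* (0.14) turned positive, and 1 inhibitor other than *Bambi* was called higher, *Pmepa1* (1.2, adjusted p = 0.00215). It also gave 711 genes higher and 154 lower, beside 275 and 193 under TMM. In the fits without 1 library the number of these inhibitors called higher was 0 to 1, with *Smad6* at -0.22 to 0.0034, *Ski* at -0.18 to 0.0022 and the *Ski*/*Skil* difference at -0.15 to 0.11. In the same fits 5 to 11 pathway genes were called higher and 1 to 6 lower, and 1 gene near *Mkx* was called higher in each. DESeq2, RLE and upper-quartile scaling and the block also called 1 gene near *Mkx* higher. With 10 counts in every library required, 0 genes near *Mkx* were called lower, since *Greb1l* was not tested. *Pmepa1* had adjusted p-values of 3.71e-05 to 0.0855, *Smad7* of 0.0674 to 0.439 and *Smurf1* of 0.0674 to 0.411. Counts over all genes moved by more than 1.5 times under a filter of 1 count in any library (541 higher and 322 lower) and without WT replicate 2 (119 and 113), WT replicate 3 (103 and 112), *Mkx*-/- replicate 2 (155 and 130) or *Mkx*-/- replicate 3 (177 and 121). The causes were not tested.

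Libraries with the same replicate number did not deviate together throughout (r = -0.00031, -0.24 and 0.31), and not every library correlated best with its own number. WT replicate 3 and *Mkx*-/- replicate 3 did, while the highest value, 0.44, was that of WT replicate 1 and *Mkx*-/- replicate 2. These values come from deviations around the means of only 3 libraries per genotype, so they cannot decide whether the numbers pair the samples. With the replicate number as a block, 195 genes were called higher and 136 lower, 11 and 2 of them in the pathway lists, and *Pmepa1* had an adjusted p of 0.0659. With ratios taken within replicate numbers, the smallest exact p that 3 pairs allow is 0.25. Depth limits *Smad7* and *Smad6* most, at 48 and 71 counts in their lowest libraries.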
